A study of Mus musculus with 31 samples.

Results

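The 10 genes described here build and load MHC class II, the surface complex that shows peptides to CD4 T cells. They were taken by symbol: H2-Aa, H2-Ab1, H2-Eb1, H2-DMa, H2-DMb1, H2-DMb2, H2-Oa, H2-Ob, Cd74 and Ciita. All 10 were found among the 45706 gene identifiers of the count tables, and all 10 passed the filter on low counts in every comparison. RNA-seq libraries came from sorted bone marrow cells of wild-type C57BL/6 mice, 10 weeks old, with 4 libraries a group except where stated. At day 7, long-term hematopoietic stem cells (HSC) were taken from mice given 1 mg of β-glucan into the peritoneum (3 libraries) and from mice given PBS. At day 28, multipotent progenitors (MPP) and HSC were taken after the same 2 treatments. A further pair of HSC groups received 150 mg/kg of 5-fluorouracil (5-FU), a cytotoxic drug that kills dividing cells, 7 days after β-glucan or PBS, and was sampled 14 days after the drug.

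The 31 libraries held 19331663 to 39485556 counts, of which haemoglobin genes made up 1.69 to 18.2%. Nothing in the labels ties replicates to separate animals, and p-values therefore reflect the scatter among these libraries, part of which may be technical. 1 library titled MPP of PBS mice carries an HSC cell type tag. Slamf1, which encodes the HSC marker CD150, spanned 0.908 to 1.31 CPM over the 4 MPP libraries of PBS mice, this one included, against 3.69 to 8.02 CPM in HSC of PBS mice at day 28. Levels are CPM, counts relative to library size, scaled within each of the 3 tables (day 7, day 28, 5-FU), and no level was tested between tables. The differences between β-glucan effects of separate tables, given further on, come from a fit that joins the libraries of both. Genes are said to be called at an adjusted p below 0.05 in edgeR (quasi-likelihood test, Benjamini-Hochberg over all genes). Values after a gene are log2 fold changes ± standard errors. Counts at an unadjusted p under 0.05 stand without a share of all genes, which was not computed at that threshold.

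A class II molecule pairs an α and a β chain, which are H2-Aa with H2-Ab1 for I-A and H2-Eb1 with the Ea chain for I-E. C57BL/6 mice transcribe H2-Eb1 but carry a defective Ea gene, so that they show I-A and not I-E at the surface. Cd74 encodes the invariant chain, which holds the new heterodimer and guides it to endosomes. There the DM heterodimer (H2-DMa with H2-DMb1 or H2-DMb2) removes the remaining piece of invariant chain and edits the bound peptide, and the DO heterodimer (H2-Oa with H2-Ob), best known from B cells, restrains DM. Ciita encodes the coactivator that turns the whole set on, working through the RFX, CREB and NF-Y proteins bound to the X and Y boxes of class II promoters. Class II is highest in dendritic cells and B cells, and lower class II transcription is known from hematopoietic progenitors.

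The 8 H2 genes lie in 1 block of chromosome 17 in mm10. From the proximal end they are H2-Oa (34092340 to 34095234), H2-DMa (34135182 to 34139101), H2-DMb2 (34143307 to 34151553), H2-DMb1 (34153072 to 34160230), H2-Ob (34238903 to 34245907), H2-Ab1 (34263209 to 34269418), H2-Aa (34282744 to 34287827, on the minus strand) and H2-Eb1 (34305877 to 34316199). Ciita lies on chromosome 16 (10488178 to 10527564) and Cd74 on another chromosome. The β chains H2-DMb1 and H2-DMb2 are near copies. Of the 50-base windows of their transcripts, 22.7% (H2-DMb1) and 25.9% (H2-DMb2) also occur in another gene, most often in each other, so reads from those stretches cannot be assigned with certainty. H2-Oa shares 15.2% of its exon bases with BC051537 on the opposite strand, and the library kit does not mark strand.

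Upstream stretches are shown for the 4 H2 genes on which the comparisons turn most, H2-DMb2 and H2-Ob for their change at day 7, H2-DMb1 as the near copy of H2-DMb2, and H2-Eb1 for its difference between MPP and HSC. Each is the 150 bases before the RefSeq start (GRCm38.p6), 5′ to 3′ on the plus strand of chromosome 17. Capitals mark matches to ATTGG on either strand, the core of the Y box, and to a longer X box pattern, also searched on both strands and written down after these sequences had been seen, whose matches are the long runs of capitals. The 3 X box matches end 20 to 23 bases before the ATTGG that follows them.
H2-Eb1 (chr17:34305717-34305866): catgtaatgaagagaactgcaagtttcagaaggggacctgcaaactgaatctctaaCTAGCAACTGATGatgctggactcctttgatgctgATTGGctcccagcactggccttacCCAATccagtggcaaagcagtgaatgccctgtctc
H2-Ob (chr17:34238755-34238904): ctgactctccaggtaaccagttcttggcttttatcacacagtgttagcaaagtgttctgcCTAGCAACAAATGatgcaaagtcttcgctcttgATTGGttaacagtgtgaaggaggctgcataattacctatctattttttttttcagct
H2-DMb1 (chr17:34153041-34153190): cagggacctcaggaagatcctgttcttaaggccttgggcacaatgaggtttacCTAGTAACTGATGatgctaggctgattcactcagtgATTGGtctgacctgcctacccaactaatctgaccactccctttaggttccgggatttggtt
H2-DMb2 (chr17:34145099-34145248): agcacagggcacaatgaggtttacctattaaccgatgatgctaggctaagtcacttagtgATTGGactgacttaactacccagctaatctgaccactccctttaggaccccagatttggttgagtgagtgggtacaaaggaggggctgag

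Windows from 250 bases before to 50 bases after the start were searched. ATTGG occurred in 37.4% of all 32851 RefSeq windows of that length, and the X box pattern in 0.0578% of them. H2-Aa and H2-Oa also held ATTGG, beginning 48 and 43 bases before their starts, and not the longer pattern. No match says only that these letters are not in the window. The RefSeq start of H2-DMb2 lies inside the gene as the count tables have it, and the 2 windows listed for H2-DMa lie far upstream of its gene in the tables, so that H2-DMa is not described. H2-Ab1, Cd74 and Ciita are named only.

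Per kilobase of exon, Cd74 had the highest mean CPM of the 10 members in all 8 groups and Ciita the lowest. Per kilobase of exon, Cd74 averaged 1971 ± 218 CPM in MPP of β-glucan mice and 1996 ± 119 CPM in MPP of PBS mice (SD, n = 4 each), with 1462 ± 146 and 1403 ± 102 CPM in HSC of the same 2 treatments at day 28. In HSC of day 28 the I-A chains came next, with H2-Aa at 178 ± 9.23 and H2-Ab1 at 164 ± 8.47 CPM per kilobase in HSC of PBS mice, followed by H2-Eb1 at 148 ± 3.33. H2-DMa followed at 76.2 ± 3.30, then H2-DMb2 at 24.8 ± 1.56 and H2-DMb1 at 17.5 ± 1.93. The DO chains H2-Ob (10.3 ± 0.616) and H2-Oa (9.18 ± 1.21) did not differ from each other beyond their spread, and Ciita closed the order at 2.44 ± 0.307 CPM per kilobase.

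**Figure D1:**
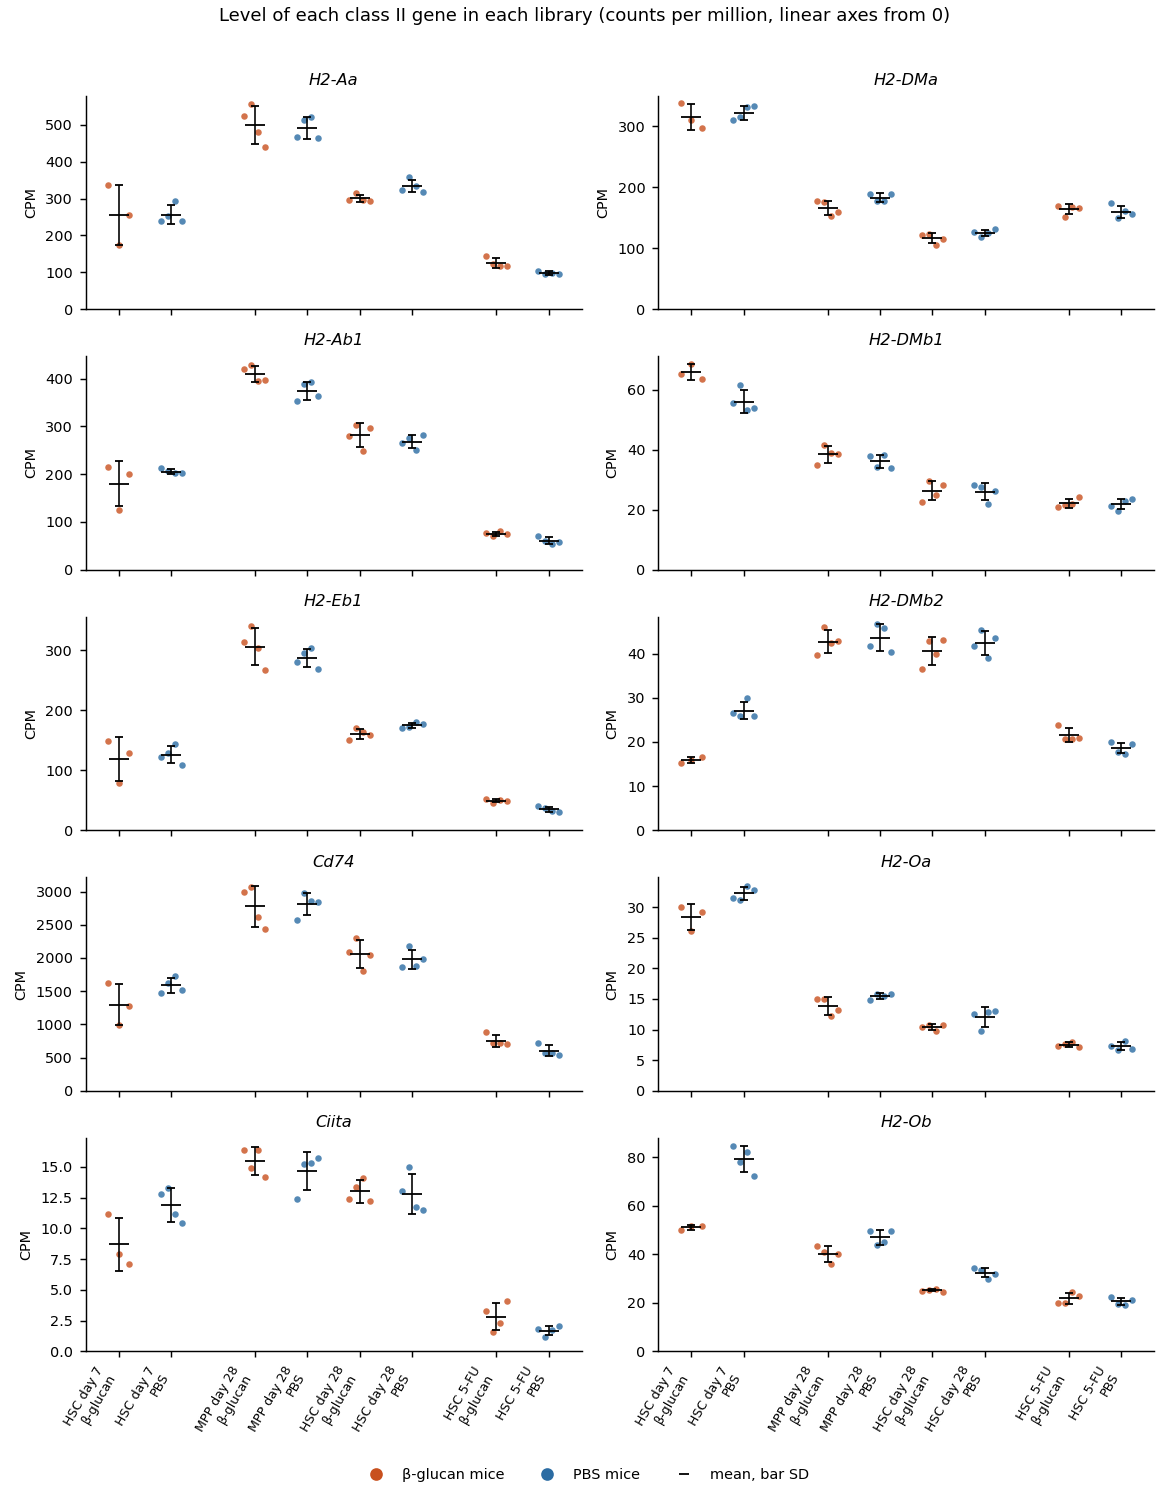
CPM (linear axes from 0) of each of the 10 genes in each of the 31 libraries, by group; points are libraries, bars the mean and SD. H2-Ob and H2-DMb2 of the 3 β-glucan libraries at day 7 sit below all 4 PBS libraries, and most genes sit higher in MPP than in HSC of the same treatment at day 28.

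The order differed between tables. At day 7, H2-DMa was second to Cd74, at 192 ± 12.9 CPM per kilobase in HSC of β-glucan mice (n = 3) and 197 ± 7.10 in HSC of PBS mice (n = 4), ahead of H2-Aa at 136 ± 43.7 and 137 ± 13.7. After 5-FU, H2-DMa again held second place, at 99.8 ± 5.08 in β-glucan mice and 97.1 ± 6.32 in PBS mice. H2-DMb1 stood above H2-DMb2 per kilobase at day 7 and below it in HSC at day 28. After 5-FU the chains of class II itself were at their lowest, with H2-Eb1 at 49.3 ± 2.50 CPM in β-glucan mice and 34.8 ± 4.32 CPM in PBS mice, against 161 ± 8.59 and 175 ± 3.94 CPM in HSC at day 28. Ciita was lower too, at 2.81 ± 1.09 and 1.68 ± 0.389 CPM after 5-FU. Other genes moved between the tables as well. Procr, a marker of long-term HSC, spanned 49.4 to 64.8 CPM over the libraries of day 7, 4.73 to 10.8 CPM over HSC libraries of day 28, and 6.01 to 12.6 CPM after 5-FU. The plasmacytoid dendritic cell marker Siglech spanned 30.2 to 39.5 CPM in HSC libraries of day 28 and 5.58 to 11.7 CPM after 5-FU. The 11 mature neutrophil markers summed to 159094 ± 12011 and 168020.4 ± 29041 CPM after 5-FU in β-glucan and PBS mice, against 63798 ± 3460.1 and 76033 ± 6163 CPM in HSC at day 28. The part of such differences in the levels of the class II genes was not tested. In bulk samples, fewer cells of a type and less RNA per cell cannot be told apart.

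At day 7, the DO β chain H2-Ob and the DM β chain H2-DMb2 were lower in HSC of β-glucan mice than in HSC of PBS mice, and the chains of class II itself were not called. H2-Ob had 49.97, 51.6 and 51.4 CPM in the 3 β-glucan libraries, against 84.4, 77.9, 82.3 and 72.2 CPM in the 4 PBS libraries. The β-glucan libraries lay close together and below all 4 PBS libraries. Its fold change was -0.64 ± 0.08 (adjusted p = 0.00121, quasi-likelihood test of edgeR, Benjamini-Hochberg). H2-DMb2 had 15.3, 15.9 and 16.5 CPM in β-glucan libraries, against 26.6, 25.9, 30.0 and 25.8 CPM in PBS libraries. Again the groups did not overlap, and H2-DMb2 fell by 0.77 ± 0.11 on the log2 scale (adjusted p = 0.00197, edgeR).

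The near copy H2-DMb1 did not share that direction. It had 65.1, 68.7 and 63.4 CPM in β-glucan libraries and 55.4, 61.5, 53.1 and 53.7 CPM in PBS libraries, so that the β-glucan libraries were all higher. The change of 0.23 ± 0.08 was not called (adjusted p = 0.134, edgeR; 0.0801 by DESeq2). The ratio of H2-DMb1 to H2-DMb2 within a library was 4.26, 4.33 and 3.84 in β-glucan libraries and 2.09, 2.37, 1.77 and 2.08 in PBS libraries, without overlap. The part of the reads that both genes share in this ratio was not tested. Their partner H2-DMa stood at 315 ± 21.2 CPM in β-glucan libraries and 323 ± 11.6 CPM in PBS libraries (-0.03 ± 0.08, adjusted p = 0.867, edgeR). H2-Oa, the partner of H2-Ob, had 30.1, 26.1 and 29.1 CPM against 31.6, 31.2, 33.5 and 32.8 CPM in PBS libraries. All 3 values lay below the PBS libraries, and the change of -0.18 ± 0.10 was not called (adjusted p = 0.328, edgeR).

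**Figure D2:**
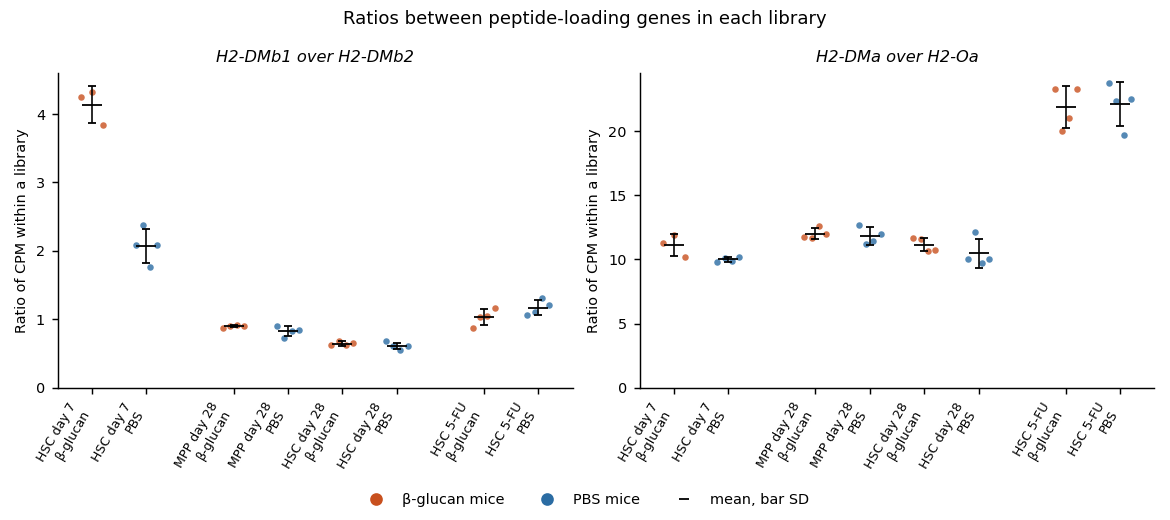
Ratio of CPM within each library for H2-DMb1 over H2-DMb2 and for H2-DMa over H2-Oa (linear axes from 0); points are libraries, bars the mean and SD. The 3 β-glucan libraries of day 7 lie between 3.84 and 4.33 for H2-DMb1 over H2-DMb2, above every other library.

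The antigen-presenting chains varied widely among the 3 β-glucan libraries of day 7. H2-Aa had 338, 174 and 255 CPM there, and 240.0, 254, 293 and 239 CPM in PBS libraries. Replicate 1 of β-glucan lay above, and replicate 2 below, all PBS libraries, and the same 2 libraries were the highest and the lowest of their group for H2-Ab1, H2-Eb1 and Cd74. The changes were -0.01 ± 0.17 (H2-Aa), -0.19 ± 0.15 (H2-Ab1) and -0.09 ± 0.18 (H2-Eb1), with adjusted p of 0.535 or more by edgeR. Cd74 had 1617, 997 and 1279 CPM in β-glucan libraries, against 1477, 1624, 1727 and 1525 CPM in PBS libraries (-0.29 ± 0.14, adjusted p = 0.261, edgeR). Without β-glucan replicate 1, Cd74 was called at -0.48. Ciita had 11.1, 7.91 and 7.06 CPM against 12.8, 13.2, 11.1 and 10.4 CPM in PBS libraries, with 1 β-glucan library inside the PBS range (-0.45 ± 0.19, adjusted p = 0.196, edgeR).

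In all, 2 of 10 members were called at day 7, both lower, where 6.72% of all 16403 genes were called (2.83% higher and 3.88% lower). The groups did not overlap for 4 members, 1 higher and 3 lower, against 18.9% of all genes (8.69% higher and 10.3% lower). The members' median was -0.19, beside -0.01 over all genes tested. Of 14 B cell markers, 12 were called lower (median -1.46), and their summed level spanned 1138 to 1706 CPM in β-glucan libraries and 2164 to 2371 CPM in PBS libraries. Cd79a, the signalling chain of the B cell receptor, stood at 58.6 to 88.6 CPM in β-glucan libraries and 207 to 220.4 CPM in PBS libraries. Of 8 plasmacytoid dendritic cell markers, 6 were called lower (summed level 392 to 417 CPM against 533 to 598 CPM in PBS libraries), and of 10 conventional dendritic cell markers, 2. The 11 mature neutrophil markers moved the other way, with 8 called higher (summed level 75869 to 121463 CPM against 53619 to 61752 CPM in PBS libraries). Relative to Cd79a, H2-Ob was higher in β-glucan libraries, at 0.583 to 0.852 against 0.346 to 0.397 in PBS libraries. So were H2-DMb2 (0.179 to 0.261 against 0.121 to 0.145), H2-Aa (1.96 to 5.76 against 1.09 to 1.42) and Cd74 (11.3 to 27.6 against 6.70 to 8.33). These ratios are thus not particular to H2-Ob, and no other B cell marker was used for them. Of 9 erythroid markers 9 were called lower (summed level 23569 to 29837 CPM against 64464 to 80334 CPM in PBS libraries). Of 12 monocyte and macrophage markers 3 were called higher, and of 11 T and NK cell markers 1 higher and 1 lower. The part of these cells in the change of H2-Ob and H2-DMb2 was not tested.

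Genes that act on class II from outside the set also moved at day 7. Of 16 regulators of Ciita and promoter factors, 2 were called higher and 1 lower, where 2.83% of all genes were called higher and 3.88% lower. Among them were the interferon-induced factor Irf1 (0.60 ± 0.09, adjusted p = 0.00241) and the kinase Jak1 (-0.28 ± 0.07, adjusted p = 0.0366, both by edgeR). The RFX subunits Rfx5, Rfxap and Rfxank were not called. Of 11 genes of endosomal processing and class II turnover, 3 were called higher and 2 lower. The thiol reductase Ifi30 (0.66 ± 0.11) and the cathepsin Ctsl (0.41 ± 0.09), which cuts antigen and invariant chain, rose. March8, a ligase that removes class II from the surface (-1.06 ± 0.10), and Cd83, which stabilises class II there (-1.15 ± 0.20), fell. Costimulatory genes (Cd80, Cd86 and Cd40) gave 0 calls of 3 by edgeR and by DESeq2, with 1 at an unadjusted p under 0.05.

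**Figure D3:**
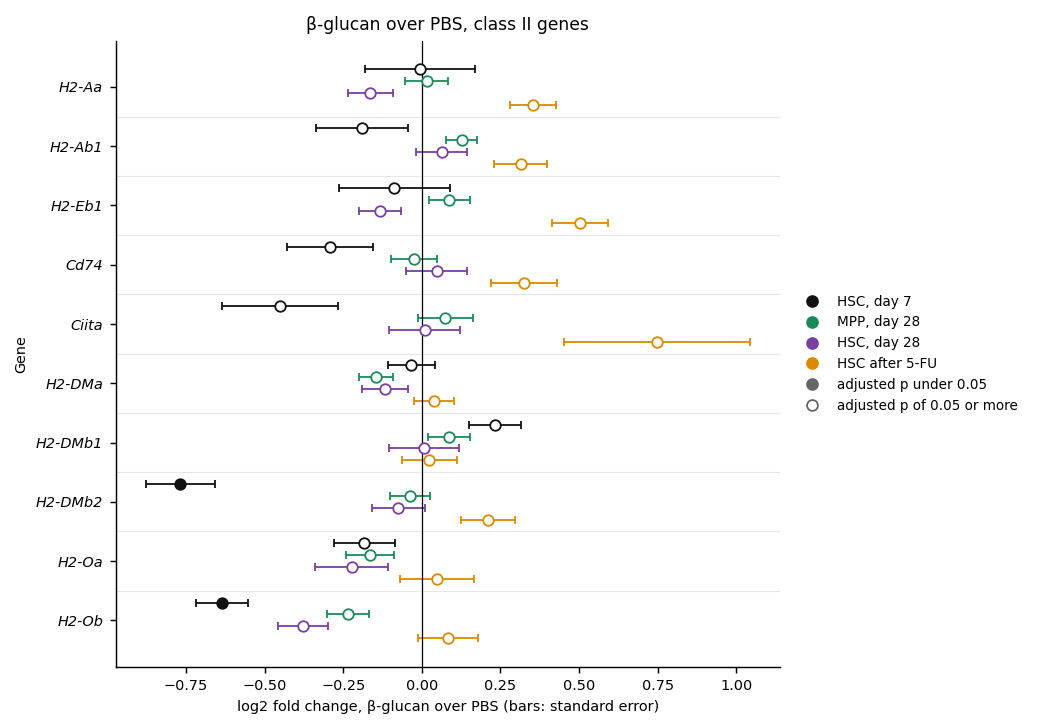
Log2 fold change of β-glucan over PBS for each of the 10 genes, with its standard error, in HSC at day 7, MPP and HSC at day 28 and HSC after 5-FU; filled points have an adjusted p under 0.05. The filled points are H2-DMb2 (-0.77) and H2-Ob (-0.64) at day 7.

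At day 28, 0 of 10 members were called in HSC of β-glucan mice by edgeR, 2 had an unadjusted p under 0.05, and DESeq2 called 1, H2-Ob. Of all 16025 genes, 0.0374% were called by edgeR, and DESeq2 called 589 genes. H2-Ob had 25.01, 25.4, 25.6 and 24.5 CPM in β-glucan libraries, against 34.2, 33.6, 29.9 and 31.8 CPM in PBS libraries. The groups did not overlap (-0.38 ± 0.08, adjusted p = 0.102 by edgeR and 0.00183 by DESeq2). H2-Aa was also without overlap, at 296, 315, 297 and 295 CPM against 325, 358, 334 and 319 CPM in PBS libraries (-0.16 ± 0.07, adjusted p = 0.272, edgeR). H2-Eb1 was the third such gene, at 150.2 to 170.3 CPM in β-glucan libraries and 171 to 179.8 CPM in PBS libraries (-0.13 ± 0.07, adjusted p = 0.343, edgeR). Against these 3 lower members, 8.83% of all genes were without overlap (4.31% higher and 4.52% lower). H2-DMb2, lower at day 7, stood at 40.6 ± 3.10 CPM in β-glucan libraries and 42.4 ± 2.66 CPM in PBS libraries (-0.07 ± 0.08). For the other members the fold changes lay between -0.22 (H2-Oa) and 0.06 (H2-Ab1). Of 14 B cell markers 0 were called by edgeR, with 8 lower at an unadjusted p under 0.05 and 4 called by DESeq2. Their summed level spanned 1438 to 1867 CPM in β-glucan libraries and 1634 to 2308 CPM in PBS libraries. H2-Ob relative to Cd79a stood at 0.163 to 0.169 in β-glucan libraries and 0.168 to 0.198 in PBS libraries. Other lists gave 0 calls by edgeR as well. Of 11 T and NK cell markers 7 were lower and 1 higher at an unadjusted p under 0.05 (3 called by DESeq2), of 11 mature neutrophil markers 6 were lower (2 by DESeq2), and of 11 LT-HSC markers 5 were lower (1 by DESeq2). The part of these cells in the values of H2-Ob and H2-Aa was not tested. Of the 16 regulators and promoter factors and the 11 processing genes 0 were called by edgeR. At an unadjusted p under 0.05 there were 5 and 1, and DESeq2 called 1 and 0.

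In MPP at day 28, 0 of 10 members were called by edgeR, 3 had an unadjusted p under 0.05 (1 higher and 2 lower), and DESeq2 called 1, again H2-Ob. Of all 15828 genes, 4.63% were called by edgeR (2.72% higher and 1.91% lower), and DESeq2 called 1302 genes. H2-Ob had 43.5, 40.8, 35.9 and 40.2 CPM in β-glucan libraries, against 49.6, 43.7, 44.9 and 49.7 CPM in PBS libraries. The 4 β-glucan values lay below the PBS libraries by a narrow margin (-0.23 ± 0.07, adjusted p = 0.0682, edgeR). Without MPP β-glucan replicate 1 it was called at -0.27. H2-Ab1 had 420.4, 428, 396 and 397 CPM in β-glucan libraries and 353, 389, 392 and 363 CPM in PBS libraries, higher in each of the 4 β-glucan libraries (0.13 ± 0.05, adjusted p = 0.165, edgeR). These were the 1 lower and the 1 higher member without overlap, against 5.24 and 7.11% of all genes (12.4% in either direction). Of 14 B cell markers, 8 were called lower, among them Cd79a (-0.47 ± 0.05), and their summed level spanned 3058 to 3850 CPM in β-glucan libraries and 3506 to 4099 CPM in PBS libraries. H2-Ob relative to Cd79a stood at 0.219 to 0.256 in β-glucan libraries and 0.177 to 0.217 in PBS libraries. Of 11 mature neutrophil markers 7, and of 11 T and NK cell markers 6, were called lower. Of 8 plasmacytoid dendritic cell markers 1 was called higher and 1 lower (summed level 499.9 to 537 CPM against 529 to 566 CPM in PBS libraries). Of 10 conventional dendritic cell markers 1 was called higher and 1 lower (124 to 161 CPM against 120.1 to 125.8 CPM). The part of these cells in the values of H2-Ob was not tested. Of the 16 regulators and promoter factors, Irf8 (0.36 ± 0.08), a factor of dendritic cell development, and the NF-Y subunit Nfyc (0.52 ± 0.11) rose. Irf8 stands in 2 lists and is also the 1 plasmacytoid dendritic cell marker called higher. Of the 11 processing genes, March1, a ligase of the same kind as March8 (-0.37 ± 0.09), and Ctss (-0.23 ± 0.06) fell.

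After 5-FU the antigen-presenting chains stood higher in HSC of β-glucan mice, without passing the test. By edgeR 0 of 10 members were called, and 6 had an unadjusted p under 0.05, all higher. DESeq2 called 2, H2-Aa and H2-Eb1. Of all 15705 genes, 0.0446% were called by edgeR (0.0382% higher and 0.00637% lower), and DESeq2 called 147 genes. H2-Eb1 had 51.3, 45.7, 50.7 and 49.4 CPM in β-glucan libraries, against 39.7, 37.0, 32.0 and 30.5 CPM in PBS libraries. The groups did not overlap (0.50 ± 0.09, adjusted p = 0.0781 by edgeR and 0.000148 by DESeq2). H2-Aa had 144, 122, 117 and 117 CPM in β-glucan libraries and 104, 93.8, 98.1 and 96.0 CPM in PBS libraries. Again every β-glucan library was higher (0.35 ± 0.07, adjusted p = 0.145 by edgeR and 0.00557 by DESeq2). H2-DMb2 was the third member without overlap, at 20.7 to 23.8 CPM against 17.4 to 19.9 CPM in PBS libraries (0.21 ± 0.09, adjusted p = 0.586, edgeR), where 4.61% of all genes were without overlap (2.4% higher and 2.21% lower).

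H2-Ab1 and Cd74 had higher means in β-glucan mice after 5-FU, with overlap. H2-Ab1 had 75.6, 70.1, 80.9 and 74.7 CPM in β-glucan libraries and 71.3, 59.7, 54.2 and 57.1 CPM in PBS libraries (0.31 ± 0.09, adjusted p = 0.275, edgeR). Cd74 had 891, 712, 716 and 702 CPM in β-glucan libraries and 725, 571, 572 and 542 CPM in PBS libraries (0.33 ± 0.10, adjusted p = 0.404, edgeR). In both groups replicate 1 was the highest for Cd74 and H2-Aa. Ciita had the lowest level, at 3.28, 1.56, 2.33 and 4.07 CPM in β-glucan libraries and 1.82, 1.13, 1.76 and 2.03 CPM in PBS libraries (0.75 ± 0.30, adjusted p = 0.561, edgeR). H2-DMa, H2-DMb1, H2-Oa and H2-Ob lay between 0.02 and 0.08. The members' median was 0.26, beside -0.00 over all genes. Of 14 B cell markers 0 were called by edgeR or DESeq2, with 1 higher at an unadjusted p under 0.05, and their summed level spanned 1012 to 1570 CPM in β-glucan libraries and 926 to 1203 CPM in PBS libraries. The 8 plasmacytoid dendritic cell markers summed to 202 to 231 CPM in β-glucan libraries and 163 to 210.3 CPM in PBS libraries, with 1 of 7 tested called by DESeq2 and 0 by edgeR. Of 11 T and NK cell markers 0 were called by edgeR and 1 by DESeq2, with 5 higher at an unadjusted p under 0.05. Of 9 erythroid markers 0 were called by edgeR and 5 by DESeq2, with 8 lower at an unadjusted p under 0.05, and their summed level spanned 92714 to 123747 CPM in β-glucan libraries and 136017 to 161388 CPM in PBS libraries, without overlap. Of 12 monocyte and macrophage markers 0 were called by either tool, with 12 fold changes above 0 and 4 higher at an unadjusted p under 0.05. The part of these cells in the higher class II levels was not tested. H2-Ob relative to Cd79a overlapped, at 0.185 to 0.265 in β-glucan libraries and 0.166 to 0.315 in PBS libraries. Of the 16 regulators and promoter factors 0 were called by either tool, with 1 at an unadjusted p under 0.05. Of the 11 processing genes 0 were called by edgeR and 1 by DESeq2, with 3 at an unadjusted p under 0.05.

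The β-glucan effects were then compared with each other in 1 fit of 4 groups. Day and 5-FU each coincide with a separate table, so a difference of effects between tables cannot be told apart from a table difference. Between day 28 and day 7 in HSC, H2-DMb2 was the 1 member called, at 0.67 ± 0.13 (adjusted p = 0.00597, edgeR), where 4.82% of 17977 genes were called (2.24% higher and 2.58% lower). Its β-glucan effect was -0.07 at day 28 and -0.77 at day 7. The call held when any 1 library was left out. In HSC of PBS mice, the ratio of H2-DMb1 to H2-DMb2 was 1.77 to 2.37 at day 7 and 0.557 to 0.675 at day 28. The part of the reads that both genes share in this difference was not tested. For H2-Ob (-0.38 at day 28 and -0.64 at day 7) the difference of 0.23 ± 0.11 was not called (adjusted p = 0.244, edgeR). Between 5-FU and day 28 in HSC, H2-Eb1 was the 1 member called, at 0.62 ± 0.11 (adjusted p = 0.0389, edgeR), where 0.106% of 16985 genes were called (0.053% in each direction). Its β-glucan effect was 0.50 after 5-FU and -0.13 at day 28. This call was lost when any of 13 of the 16 libraries was left out, with the difference then at 0.55 to 0.65, and was kept without PBS replicate 2 or β-glucan replicate 3 of day 28 or without PBS replicate 1 of 5-FU. The difference for H2-Aa was 0.50 ± 0.10 (adjusted p = 0.0684 by edgeR and 0.00602 by DESeq2). Between MPP and HSC at day 28, 0 members were called by edgeR or DESeq2 and 1 had an unadjusted p under 0.05 (H2-Eb1, 0.21 ± 0.10, adjusted p = 0.799, edgeR), where 0.00599% of 16691 genes were called. All 3 differences use the HSC libraries of day 28.

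Class II genes were higher in MPP than in HSC at day 28, in mice of both treatments. In PBS mice 8 of 10 members were called higher and 0 lower, where 21.7% of 16122 genes were called (9.58% higher and 12.1% lower). In β-glucan mice 9 of 10 were called higher and 0 lower, where 35.6% of 15945 genes were called (17.7% higher and 18.0% lower). The members' median was 0.49 in PBS mice and 0.53 in β-glucan mice, beside -0.02 and -0.01 over all genes. The groups did not overlap for the same 8 and 9 members, against 13.3 and 16.9% of all genes that were higher without overlap (26.5 and 33.8% in either direction).

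The 2 treatments share no library in these comparisons. H2-Eb1 differed most. It had 314, 341, 304 and 268 CPM in MPP of β-glucan mice, against 150.2, 170.3, 165 and 159 CPM in HSC of β-glucan mice (0.93 ± 0.07, adjusted p = 1.5e-05, edgeR). In PBS mice it had 280.3, 295, 304 and 269 CPM in MPP and 171, 173, 179.8 and 177 CPM in HSC (0.70 ± 0.06, adjusted p = 6.48e-05, edgeR). Every MPP library was higher than every HSC library in both treatments.

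H2-Aa followed, with 439 to 556 CPM in MPP and 295 to 315 CPM in HSC of β-glucan mice (0.74 ± 0.07), and 465 to 522 CPM in MPP and 319 to 358 CPM in HSC of PBS mice (0.55 ± 0.07). H2-Ab1 was higher by 0.54 ± 0.07 in β-glucan mice and by 0.47 ± 0.06 in PBS mice. Cd74 had 2993, 3077, 2615 and 2429 CPM in MPP of β-glucan mice, against 2092, 2308, 1806 and 2039 CPM in HSC (0.43 ± 0.09, adjusted p = 0.00484, edgeR). In PBS mice Cd74 had 2578, 2975, 2862 and 2843 CPM in MPP and 1866, 2179, 1883 and 1987 CPM in HSC (0.50 ± 0.08, adjusted p = 0.0017, edgeR). For all 4 of these genes the MPP libraries lay above the HSC libraries in both treatments. As a share of all counts, the 10 members made up 0.425 to 0.477% of MPP and 0.272 to 0.329% of HSC libraries of β-glucan mice, and 0.413 to 0.439% of MPP and 0.282 to 0.296% of HSC libraries of PBS mice.

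**Figure D4:**
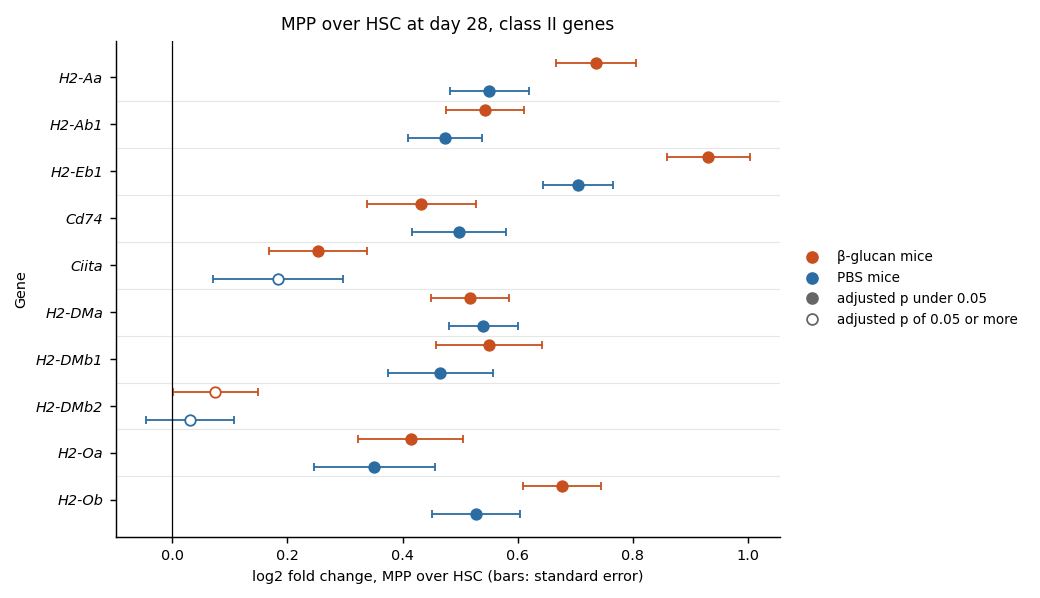
Log2 fold change of MPP over HSC at day 28 for each of the 10 genes in β-glucan mice and in PBS mice, with its standard error; filled points have an adjusted p under 0.05. H2-Eb1 lies highest, at 0.93 and 0.70, and H2-DMb2 lies near 0 in both.

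The peptide editors split. H2-DMa was higher in MPP by 0.52 ± 0.07 in β-glucan mice and by 0.54 ± 0.06 in PBS mice, and H2-DMb1 by 0.55 ± 0.09 and 0.47 ± 0.09. H2-DMb2 had 39.6, 46.0, 42.5 and 42.9 CPM in MPP of β-glucan mice, against 36.5, 42.8, 40.0 and 43.2 CPM in HSC. In PBS mice it had 41.7, 46.7, 45.9 and 40.4 CPM in MPP and 41.8, 45.3, 39.1 and 43.6 CPM in HSC. The groups overlapped in both treatments (0.08 ± 0.07 with adjusted p = 0.457, and 0.03 ± 0.08 with adjusted p = 0.808, edgeR). The ratio of H2-DMb1 to H2-DMb2 was 0.879 to 0.917 in MPP and 0.618 to 0.686 in HSC of β-glucan mice, and 0.733 to 0.909 in MPP and 0.557 to 0.675 in HSC of PBS mice, without overlap in either.

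Both DO chains were higher in MPP. H2-Ob rose by 0.68 ± 0.07 in β-glucan mice (adjusted p = 6.35e-05) and by 0.53 ± 0.08 in PBS mice (adjusted p = 0.000857, edgeR). H2-Oa had 15.02, 15.04, 12.1 and 13.2 CPM in MPP and 10.4, 10.7, 9.83 and 10.8 CPM in HSC of β-glucan mice (0.41 ± 0.09, adjusted p = 0.00487, edgeR). In PBS mice H2-Oa had 14.9, 15.8, 15.5 and 15.8 CPM in MPP and 12.6, 9.70, 12.9 and 13.1 CPM in HSC (0.35 ± 0.10, adjusted p = 0.0331, edgeR). That call was lost without HSC replicate 1 or without any 1 of the 4 MPP libraries, at changes of 0.34 to 0.38. Ciita, the coactivator, had 16.4, 14.9, 16.4 and 14.2 CPM in MPP and 12.3, 13.3, 14.1 and 12.2 CPM in HSC of β-glucan mice (0.25 ± 0.09, adjusted p = 0.0373, edgeR). The call was lost without any of HSC replicates 1, 2 and 4 or MPP replicates 1, 2 and 3, at 0.22 to 0.28, and with no filter on low counts (adjusted p = 0.0747, edgeR). In PBS mice Ciita was not called (0.18 ± 0.11, adjusted p = 0.275, edgeR).

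Genes listed as markers of other cell types differed between MPP and HSC alongside. Bulk levels cannot tell transcription by MPP themselves from other cells in the sort. Of 8 plasmacytoid dendritic cell markers, 6 were called higher in MPP of β-glucan mice and 7 in MPP of PBS mice. Their summed level spanned 499.9 to 537 CPM in MPP and 334 to 388 CPM in HSC of β-glucan mice, and 529 to 566 CPM in MPP and 376 to 402 CPM in HSC of PBS mice. Of 10 conventional dendritic cell markers, 7 and 5 were called higher, among them Flt3, which also marks MPP, and Xcr1 (2.91 ± 0.21 and 2.26 ± 0.26). The defining markers Xcr1, Clec9a and Zbtb46 stayed at or under 2.91, 2.04 and 3.64 CPM in every MPP and HSC library of day 28. Of 14 B cell markers, 3 were called higher in β-glucan mice and 5 higher and 1 lower in PBS mice. Ighm, the IgM heavy chain, was among them (1.48 ± 0.14 and 1.28 ± 0.16). The B cell list as a whole was mixed. Its fold changes were 7 above and 7 below 0 in β-glucan mice (median -0.003). In PBS mice they were 8 above and 6 below (median 0.12). Over all genes, 17.7 and 9.58% were called higher, and 18.0 and 12.1% lower. The erythroid and mature neutrophil lists had calls in the lower direction only. Of 9 erythroid markers, 7 were called lower in MPP of β-glucan mice and 5 in MPP of PBS mice, and of 11 mature neutrophil markers, 7 and 3. The part of these cells in the class II levels of MPP was not tested.

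Of the 16 regulators and promoter factors, 2 were called higher and 3 lower in MPP of β-glucan mice. In MPP of PBS mice 1 was called higher and 3 lower. Of all genes, 35.6% were called in β-glucan mice (17.7% higher and 18.0% lower) and 21.7% in PBS mice (9.58% higher and 12.1% lower). The gene lists of this paragraph were not tested as sets against these shares. Irf1 was higher in both (0.60 ± 0.10 and 0.47 ± 0.07) and the kinases Jak1 (-0.43 ± 0.06 and -0.56 ± 0.08) and Jak2 (-0.62 ± 0.08 and -0.45 ± 0.13) lower in both. Of the 11 processing genes, 3 were called higher and 3 lower in MPP of β-glucan mice, and 2 higher and 1 lower in MPP of PBS mice. Ctss, the cathepsin that trims invariant chain, was higher in both (0.28 ± 0.06 and 0.35 ± 0.09) and March8 lower in both (-0.83 ± 0.06 and -0.88 ± 0.13). Cd86 was the 1 costimulatory gene called, in β-glucan mice (0.29 ± 0.08).

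Other genes of the class II region were barely detected. The Ea pseudogene H2-Ea-ps was at 0 CPM in every library of day 7 and of 5-FU and reached at most 0.0352 CPM at day 28. H2-Eb2 spanned 0 to 0.632 CPM and Btnl2, a butyrophilin gene of the region, 0 to 1.23 CPM over the 31 libraries.

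The genes most like H2-Aa, H2-Ab1, H2-Eb1 and Cd74 in pattern were sought among 10136 genes with a mean of at least 5 CPM, by Pearson's r to the mean log2 CPM of those 4 over 31 libraries, each taken as the deviation from its own table's mean. The libraries share tables and the difference between MPP and HSC, so r is a description. The 8 highest were Gm6368 (r = 0.90), Hsp90ab1, a cytosolic chaperone (0.88), Pltp, a lipid transfer protein (0.86), Adsl, an enzyme of purine synthesis (0.85), Gnl2 (0.85), Nemf (0.85), Hat1, a histone acetyltransferase (0.84), and Rsl1d1 (0.84). Within the day 28 table alone, r of these 8 ran from 0.87 (Hat1) to 0.96 (Hsp90ab1). It ran from 0.54 (Hsp90ab1) to 0.94 (Rsl1d1) within day 7, and from 0.33 (Rsl1d1) to 0.91 (Gm6368) within 5-FU. Among the class II members outside the 4 averaged, r over 31 libraries was 0.81 for H2-DMa, 0.72 for H2-Oa and 0.68 for H2-Ob. It was 0.62 for H2-DMb1, 0.51 for Ciita and 0.36 for H2-DMb2. For B cell markers it ran from -0.19 for Fcmr to 0.71 for Ighm, with 0.28 for Cd79a. For plasmacytoid dendritic cell markers it ran from 0.18 for Klk1 to 0.80 for Cox6a2, with 0.78 for Siglech. For conventional dendritic cell markers it ran from -0.24 for Zbtb46 to 0.73 for Xcr1. The MPP markers Cd34, Cd48 and Flt3 had 0.78, 0.66 and 0.62.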

How the data were processed

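RNA was made into libraries from sorted HSC and MPP with a kit that does not mark strand, per the labels' protocols. The values are counts per gene that the authors deposited in 3 tables. The submitters' processing notes name bcl2fastq 1.8.4, featureCounts and mm10, with an aligner not given in the sources used here. Column names carry the cell and treatment but neither day nor 5-FU, so each table was placed by its groups: the one with 3 β-glucan and 4 PBS columns is day 7, the one with MPP is day 28 and the last is 5-FU, with G and P read as β-glucan and PBS. 1 library titled MPP but tagged HSC was kept by its title.

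Of 45706 identifiers, 45143 carry a symbol. Genes were filtered with filterByExpr (minimum count 10), scaled by TMM (within a table for levels, within the libraries of each fit for tests), and tested with edgeR 4.0.16 (glmQLFit and glmQLFTest, R 4.3.3) at a threshold of 0.05 after Benjamini-Hochberg adjustment across every gene that passed the filter. The standard error is the log2 fold change over the square root of F. The procedure was tested on simulated data. DESeq2 1.42.0, no filter, a replicate block and leaving out each library were the alternatives. Depth was 19331663 to 39485556 counts per library. No 2 libraries of a group agreed within sampling noise (45 pairs, chi-square per gene 6.75 to 50.3). The members and gene lists were chosen with earlier results of these data known. Of 134 listed symbols 130 matched. All 10 members are named, and from each pathway list at most 4 called genes, smallest p first; cell type markers named beside a result were chosen after their values were seen. Some list genes are not reported here by name.

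Same-numbered MPP and HSC libraries of β-glucan mice deviated together (r = 0.189 to 0.307 in 4 pairs), and no other comparison had every pair over 0.1. In HSC of day 28 between treatments 3 of 4 pairs were over 0.1, and in MPP between treatments 2 of 4. Between MPP and HSC of PBS mice 3 of 4 were. What ties same-numbered libraries was not tested.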

Additional observations from a re-analysis of the deposited data

Results flagged for a closer look

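Of 77 sets of 4 libraries checked for 1 library standing apart, 9 had one, where chance gives about 1 in 20 for a single set. The sets reuse the same libraries and include the sum of the 10 genes, so they are not independent. The count of 9 can therefore not be read as an excess over that rate. In HSC after 5-FU, replicate 1 of β-glucan stood above its group for H2-Aa (144 CPM, the others 117 to 122), H2-DMb2 (23.8 CPM, the others 20.7 to 20.9), Cd74 (891 CPM, the others 702 to 716) and the sum of the 10 genes (1407 CPM, the others 1172 to 1210.1). Replicate 1 of PBS did so for Cd74 (725 CPM, the others 542 to 572) and the sum (1186 CPM, the others 954 to 986). In HSC at day 28, H2-Aa of β-glucan replicate 2 was high (315 CPM, the others 295 to 297) and H2-Oa of PBS replicate 2 low (9.70 CPM, the others 12.6 to 13.1). Ciita was low in MPP of PBS mice in replicate 1 (12.4 CPM, the others 15.3 to 15.7), the library with an HSC tag.

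The β-glucan effect differed between groups by a test of the difference for H2-DMb2, day 28 minus day 7 (0.67, adjusted p = 0.00597). It also did for H2-Eb1, 5-FU minus day 28 (0.62, adjusted p = 0.0389, both by edgeR's quasi-likelihood test). Both differences run between separate tables, so day or drug and table cannot be told apart.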

How the results depend on the processing

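The 2 members called at day 7 (H2-DMb2 and H2-Ob) were called by every alternative run. DESeq2 called more genes than edgeR, with 1711 at day 7, 589 and 1302 in HSC and MPP of day 28, 147 after 5-FU, 1432 for day 28 minus day 7, 151 for 5-FU minus day 28 and 2 for MPP minus HSC. It called 1 member in each of the 2 cell types at day 28, 2 members after 5-FU and 2 for 5-FU minus day 28. With no filter, 182 genes were called in HSC at day 28, 1181 in MPP (1 member), 110 after 5-FU (2 members), 59 for 5-FU minus day 28 and 2 for MPP minus HSC, and H2-DMb1 for 5-FU minus day 28 turned to 0.0035. The cause was not tested.

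With the replicate number as a block, 645 genes were called at day 7, 14 in HSC at day 28 and 16 after 5-FU. The block gave 1 member in MPP (H2-Ob) and 0 for 5-FU minus day 28, where H2-DMb1 stood at 0.00077. Same-numbered libraries deviated together in every pair only for MPP against HSC in β-glucan mice, where the block kept all 9 called members. It changed no other call of a member.

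Leaving out 1 library at a time gave 500 to 1252 genes at day 7, 1 to 51 in HSC of day 28, 164 to 1010 in MPP (0 to 1 member), 2 to 61 after 5-FU, 2004 to 5050 for MPP against HSC in PBS mice, 1 to 3 for MPP minus HSC, 445 to 1051 for day 28 minus day 7, and 6 to 49 for 5-FU minus day 28 (0 to 1 member). The 2004 are without MPP replicate 1, the library with an HSC tag, and 7 members were then called. Uncalled members that changed sign were, at day 7, H2-Aa (-0.26 to 0.21), H2-Ab1 (-0.34 to 0.011), H2-Eb1 (-0.28 to 0.14) and H2-DMa (-0.086 to 0.0084). In HSC at day 28 they were H2-DMb1 (-0.065 to 0.079), Ciita (-0.040 to 0.095) and Cd74 (-0.0043 to 0.11), and in MPP H2-Aa (-0.033 to 0.069), H2-DMb2 (-0.076 to 0.0017) and Cd74 (-0.071 to 0.029). After 5-FU it was H2-DMb1 (-0.025 to 0.063), and for MPP against HSC in PBS mice H2-DMb2 (-0.0030 to 0.076). For MPP minus HSC they were H2-DMa (-0.078 to 0.018), H2-DMb2 (-0.016 to 0.071) and Ciita (-0.023 to 0.11), for day 28 minus day 7 H2-Aa (-0.38 to 0.069) and H2-Eb1 (-0.28 to 0.12), and for 5-FU minus day 28 H2-DMb1 (-0.074 to 0.069).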
